A study of Sus scrofa with 63 samples.

Results

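The genes of the extracellular matrix and of its remodelling were followed in pig liver across 4 stages of development. Members were chosen by symbol alone: collagen chains, laminins, fibrillins, fibulins, thrombospondins, FN1, LUM, DCN, BGN, SPARC, LOX, matrix metalloproteinases, their tissue inhibitors, ADAMTS proteases and integrin chains. The array carried 53 such genes of 6765 genes with a symbol, on 99 probe-sets. The RefSeq annotation of the pig lists 133 genes under the same rule, and those with no probe-set named here, COL1A1 and COL4A1 among them, were not analysed. Where a gene had several probe-sets (27 members), the one with the highest mean over all arrays was read, and 26 members had a single probe-set.

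Liver RNA of 63 offspring of German Landrace sows was hybridised to the porcine Affymetrix array, 1 animal to an array. The groups were fetuses at 94 days post conception (94 dpc, n = 16), newborns at 1 day post natum (1 dpn, n = 16), piglets at weaning (28 dpn, n = 15) and finished pigs at 188 dpn (n = 16). Every mother had eaten a high-protein diet (HP) in gestation, so no group stands for an adequate diet, and the arrays of the adequately fed line were not analysed here. Period I set 1 dpn against 94 dpc, period II set 28 dpn against 1 dpn, period III set 188 dpn against 28 dpn, and the whole course set 188 dpn against 94 dpc. The fetuses came from a separate experiment with Caesarean section, where they were killed with T61. The fetuses and newborns were the lightest and heaviest of a litter, newborns were killed by injection, and the older animals had been nursed by other sows and were stunned by electric current after a night without feed. Experiment, selection and way of killing thus changed with age and cannot be told apart from it. Neighbouring periods share the animals of 1 stage, so a low or high stage moves both. The animals were sib pairs whose mother and sex did not enter the fit, so p-values measure the spread between these animals. Sibs counted as independent animals, so the p-values can be too small where sibs are alike.

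The extracellular matrix is the meshwork of collagens, laminins, proteoglycans and glycoproteins that holds cells in place, and integrins, made of an alpha and a beta chain, are the receptors by which cells hold on to it. Matrix metalloproteinases and ADAMTS proteases cut the meshwork and TIMP proteins block the metalloproteinases. In liver it is thin around the sinusoids and denser in the portal tracts. Stellate cells, portal fibroblasts and endothelium make most of it, while hepatocytes secrete plasma fibronectin.

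All values are the log2 signal as deposited, in which a difference of 1 is a doubling, and signals of different genes are not compared. Liver identity was plain: ALB, serum albumin, averaged 15.97, 16.04, 15.57 and 15.68 at 94 dpc, 1 dpn, 28 dpn and 188 dpn, on every array above background, and none of the 9 hepatocyte markers on the array was below background throughout a stage. The median signal of an array averaged 7.38, 7.23, 6.83 and 6.72 across the 4 stages. The 3′ minus 5′ signal of RNAs added before labelling, a measure of labelling length, averaged 0.86 ± 0.12, 1.89 ± 0.12, 2.70 ± 0.77 and 2.10 ± 0.67 (SD). The same difference for actin of the liver RNA itself, which also reflects how intact that RNA was, averaged 2.44 ± 0.59, 1.59 ± 0.51, 3.66 ± 0.30 and 4.10 ± 0.48 (SD). It was thus lower at 1 dpn than at 94 dpc and higher at 28 dpn than at 1 dpn. These were the directions in which most called members moved in periods I and II. From 28 dpn to 188 dpn it was higher again, from 3.66 to 4.10, while most called members moved lower in period III. The part of this difference in their changes was not tested. Array 6 at 94 dpc stood apart, with the lowest value of its stage in 16 of the 29 members tested in every period. In these bulk samples, fewer cells of a type and less RNA per cell cannot be told apart.

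The filter kept a probe-set if, at 1 of the compared stages, 50% or more of the arrays read it above their own median. Of the 53 members, 34 were tested in at least 1 period, 29 in all 3, and 33 were called in at least 1 (limma, Benjamini-Hochberg adjusted p under 0.05). The other 19 never passed. They included LUM, a small collagen-binding proteoglycan, LOX, the enzyme that crosslinks collagen, and MMP9, a gelatinase, which were above background on 19, 45 and 27 of the 63 arrays. ITGA2, a collagen receptor chain, was above background on none, while COL17A1 reached it on 50. The members that passed are thus not all members, and genes high at only 1 stage passed because of that stage.

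In period I the tested members were mostly lower after birth. Of 31 tested, 16 were called lower in newborns than in fetuses (51.6%), 3 higher (9.68%) and 12 were not called. Over all 12839 probe-sets tested, 34.0% were called lower and 22.9% higher, and the median change was -0.35 over the members against -0.10 over all probe-sets. Over genes with a symbol, read like the members from 1 probe-set each, 30.9% were called lower and 28.0% higher, with a median of -0.03. No member separated the arrays of the 2 stages without overlap, against 5.05% of all probe-sets. The split of the called members moved with the scaling, to 12 lower and 5 higher after quantile normalization and 14 lower and 5 higher after centring. All probe-sets moved likewise, to 28.8% lower and 26.8% higher after quantile normalization and 27.4% and 28.4% after centring. With the 3′ minus 5′ signal as a covariate limma called 0 members, 3 lower and 2 higher at an unadjusted p under 0.05, and only 0.553% and 0.296% of all probe-sets lower and higher. That signal averaged 1.89 at 1 dpn against 0.86 at 94 dpc, so in period I it and the stage cannot be told apart.

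In period II the direction turned. Of 33 tested members, 17 were called higher at 28 dpn than at 1 dpn (51.5%), 6 lower (18.2%) and 10 were not called. Over all 13078 probe-sets, 28.8% were called higher and 42.9% lower. Over genes with a symbol, 34.1% were called higher and 36.8% lower. The median change was 0.43 over the members, -0.14 over all probe-sets and -0.01 over genes. The arrays of the 2 stages did not overlap in 5 members (15.2%), against 11.7% of all probe-sets. The 4 higher ones were FBLN1, COL6A3, SPARC and COL4A2, and the lower one was ITGA5.

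In period III nearly all calls among the members were decreases. Of 32 tested, 15 were called lower at 188 dpn than at 28 dpn (46.9%), 1 higher (3.12%) and 16 were not called, while 22.5% of all 12418 probe-sets were called lower and 12.3% higher. The median change was -0.46 over the members, -0.07 over all probe-sets and -0.08 over genes with a symbol, of which 26.6% were called lower and 13.6% higher. COL4A2 and LAMC1, both lower, did not overlap (6.25% of the tested members, against 1.26% of all probe-sets).

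Over the whole course 15 of 32 tested members were called lower at 188 dpn than at 94 dpc (46.9%), 10 higher (31.2%) and 7 were not called. These shares lay near those of all 13377 probe-sets, 53.1% lower and 27.0% higher, and the median change was -0.11 over the members and -0.37 over all probe-sets. Genes with a symbol lay closer still, with 46.7% lower, 33.7% higher and a median of -0.17. Centring turned the split to 13 lower and 16 higher, and quantile normalization gave 15 and 14. All probe-sets turned the same way, to 36.4% lower and 42.0% higher after centring and 39.8% and 38.4% after quantile normalization, so the turn is no result about the members. The arrays did not overlap in 7 members (21.9%), against 23.9% of all probe-sets: FBLN1 and ITGB5 higher, and LAMB1, LAMC1, FBN1, ITGA5 and ADAMTS6 lower.

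**Figure D1:**
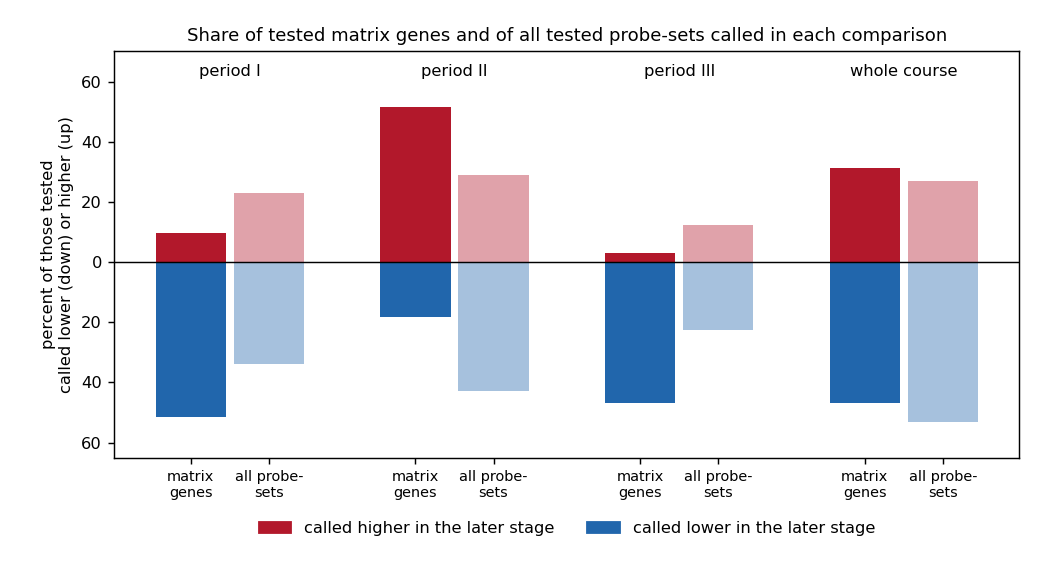
Percent of the tested matrix genes (solid) and of all tested probe-sets (pale) called higher (red, upward) or lower (blue, downward) in the later stage of each comparison. Of the matrix genes 51.6% were called lower in period I, 51.5% higher in period II and 46.9% lower in period III, against 34.0%, 28.8% and 22.5% of all probe-sets, and over the whole course the shares were close.

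**Figure D2:**
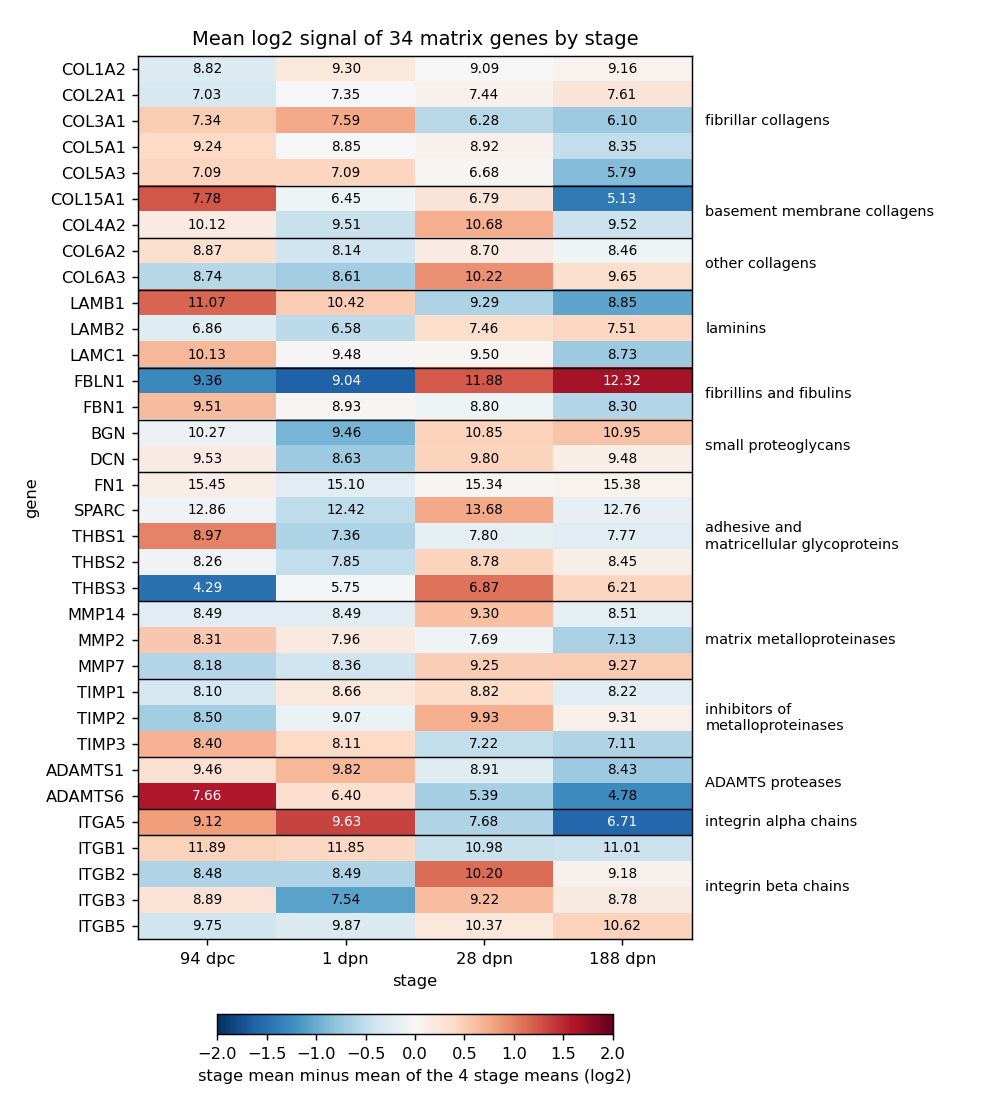
Mean log2 signal (printed) of the 34 matrix genes tested in at least 1 period, at 94 dpc, 1 dpn, 28 dpn and 188 dpn, coloured by the difference from the mean of the 4 stage means. Small proteoglycans, COL6A2 and SPARC had their lowest means at 1 dpn, and COL4A2 was about as low at 1 dpn as at 188 dpn (9.51 and 9.52). LAMB1, FBN1 and MMP2 had their highest means at 94 dpc and their lowest at 188 dpn.

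FBLN1, the fibulin that binds fibronectin and basement membranes and circulates in plasma, had the largest increase of all members. Its lowest, median and highest signals were 8.82, 9.40 and 9.88 at 94 dpc, 7.83, 8.95 and 10.71 at 1 dpn, 11.00, 11.97 and 12.48 at 28 dpn, followed by 11.36, 12.43 and 12.80 at 188 dpn. Every piglet at 28 dpn lay above every newborn, and every pig at 188 dpn above every fetus, while 94 dpc and 1 dpn overlapped. The change was 2.84 in period II (SE 0.217, adjusted p = 6.04e-13) and 2.96 over the whole course (SE 0.127, adjusted p = 4.15e-20). FBLN1 was also the only member called higher in period III, by 0.44 (adjusted p = 0.0179), a call lost in the fit of all arrays together (adjusted p = 0.0552). FBN1, fibrillin-1 of elastic microfibrils, went the other way. Its lowest, median and highest values were 8.99, 9.52 and 10.06 at 94 dpc, 8.38, 8.87 and 9.36 at 1 dpn, 8.15, 8.80 and 9.34 at 28 dpn, followed by 7.51, 8.34 and 8.88 at 188 dpn. It fell by 0.58 in period I (SE 0.0982) and by 0.50 in period III (SE 0.119), and no pig at 188 dpn reached the lowest fetus. Its second probe-set, of lower signal, gave no call in those periods (adjusted p = 0.0776 and 0.22). That probe-set was instead called lower in period II (-0.89, adjusted p = 1.18e-04), as was the mean of both, while the first gave -0.13 there (adjusted p = 0.287). Over the whole course both were called lower, the second by 1.60 (adjusted p = 5.87e-09).

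Among the basement membrane collagens, COL4A2, a chain of the type IV network, was called in every period. It measured 9.76, 10.11 and 10.52 (lowest, median, highest) at 94 dpc, 9.02, 9.48 and 9.98 at 1 dpn, 10.23, 10.67 and 11.11 at 28 dpn, followed by 8.74, 9.53 and 10.20 at 188 dpn. The piglets at 28 dpn thus lay above all newborns and all pigs at 188 dpn. The changes were -0.61 (SE 0.0977, adjusted p = 2.81e-06), 1.17 (SE 0.107, adjusted p = 3.21e-11) and -1.16 (SE 0.126, adjusted p = 1.17e-08) in periods I, II and III. COL15A1, a collagen of vascular and other basement membrane zones, had the largest decrease of period III. Its mean was 7.78 ± 0.66 at 94 dpc, 6.45 ± 1.06 at 1 dpn, 6.79 ± 0.91 at 28 dpn, followed by 5.13 ± 1.20 at 188 dpn (SD), with a change of -1.33 in period I and -1.66 in period III (adjusted p = 3.11e-04 and 5.41e-04). It was above background on 16, 11, 12 and 6 arrays of the 4 stages, so its oldest values are close to the noise, and it had the widest spread of the always tested members after birth. COL15A1 passed the filter in period III through 28 dpn alone, so its direction there was largely set by the filter. COL7A1, the anchoring fibril collagen, was not tested.

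LAMB1 and LAMC1, laminin chains that join an alpha chain in the trimers of early basement membranes, had their highest means in fetuses. LAMB1 read 10.35, 11.11 and 11.41 (lowest, median, highest) at 94 dpc, 9.96, 10.47 and 10.78 at 1 dpn, 8.45, 9.33 and 10.56 at 28 dpn, followed by 7.59, 8.90 and 9.96 at 188 dpn. Its oldest and fetal arrays did not overlap. It fell by 0.65 in period I (SE 0.0931, adjusted p = 3.80e-07) and by 1.13 in period II (SE 0.145, adjusted p = 3.48e-08), and its change of -0.44 in period III was not called (adjusted p = 0.0829). LAMC1 read 9.74, 10.18 and 10.43 at 94 dpc, 8.94, 9.47 and 10.24 at 1 dpn, 9.11, 9.44 and 9.97 at 28 dpn, followed by 8.44, 8.67 and 9.11 at 188 dpn. On this probe-set it stood level between 1 dpn and 28 dpn (change 0.02, SE 0.105). It fell by 0.65 before (adjusted p = 1.60e-06) and by 0.77 after (SE 0.0794, adjusted p = 4.34e-09). The mean of its 4 probe-sets gave 0.21 in period I (adjusted p = 0.313), and the only other probe-set tested there gave -0.03 (adjusted p = 0.891). In period II that other probe-set was called lower (-0.64, adjusted p = 0.00174), as was the mean, while centring called LAMC1 higher. The level course thus depends on the probe-set and the scaling. LAMB2, the beta chain found in mature vessel walls and neuromuscular junctions, rose in period II by 0.88 (SE 0.224, adjusted p = 8.11e-04), with means of 6.86, 6.58, 7.46 and 7.51 across the 4 stages. LAMB2 had not passed the filter in period I, so it passed through 28 dpn alone and its direction was largely set by the filter.

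Of the other collagens, COL6A3, a chain of the type VI microfibrils that surround cells, stepped up once. Its lowest, median and highest signals were 7.76, 8.75 and 9.12 at 94 dpc, 7.49, 8.72 and 9.35 at 1 dpn, 9.76, 10.19 and 10.92 at 28 dpn, followed by 8.83, 9.73 and 10.38 at 188 dpn. No newborn overlapped a piglet at 28 dpn, and the change was 1.61 (SE 0.162, adjusted p = 2.56e-10), followed by -0.56 in period III (SE 0.136, adjusted p = 0.00143). COL6A2, its partner in the same trimer, averaged 8.87 ± 0.40, 8.14 ± 0.38, 8.70 ± 0.37 and 8.46 ± 0.47 across the stages (SD). It changed by -0.73 in period I and 0.55 in period II (adjusted p = 3.06e-05 and 5.19e-04). The 2 chains therefore shared the increase in period II, in which the stages of COL6A2 overlapped. Over the whole course the change of COL6A2 was -0.42 (adjusted p = 0.0127), a call that quantile normalization and centring removed, with values of 0.01 and 0.03.

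The fibrillar collagens, which form the load-bearing fibres of scars and portal tracts, took no common course. COL1A2, the alpha-2 chain of type I collagen, was 1 of the 3 members called higher in period I, by 0.49 (SE 0.127, adjusted p = 0.00152). It averaged 8.82 ± 0.29, 9.30 ± 0.42, 9.09 ± 0.28 and 9.16 ± 0.28 (SD), and all neighbouring stages overlapped. COL3A1, the type III chain of reticular fibres, was lower by 1.31 in period II (SE 0.324, adjusted p = 5.88e-04). Its signals were 3.13, 6.40 and 7.69 at 28 dpn (lowest, median, highest) against 5.56, 7.88 and 8.66 at 1 dpn. They overlapped, and 12 arrays at 28 dpn and 16 at 1 dpn were above background. COL3A1 was not tested in period III, so it passed in period II through 1 dpn alone and its direction was largely set by the filter. COL5A1, which seeds fibril assembly, fell by 0.39 in period I (adjusted p = 0.0172) and by 0.57 in period III (adjusted p = 2.85e-04), and its first decrease was lost after quantile normalization (adjusted p = 0.0697) and without arrays 25, 27 and 28 of 1 dpn (adjusted p = 0.0734). COL5A3 was called only in period III (-0.89, adjusted p = 0.0241, or 0.0523 with no filter and 0.0614 after quantile normalization), and COL2A1, the cartilage collagen, in none of the 3 periods. COL5A3 passed the filter in period III through 28 dpn alone, so its direction there was largely set by the filter. COL5A2 and COL11A1 were not tested.

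BGN and DCN, the biglycan and decorin of fibre surfaces, dipped at birth and recovered. BGN read 9.28, 10.37 and 10.71 (lowest, median, highest) at 94 dpc, 7.56, 9.60 and 10.50 at 1 dpn, 10.42, 10.78 and 11.55 at 28 dpn, followed by 10.41, 10.90 and 11.70 at 188 dpn. Its newborn arrays spread widely, down to 7.56, and barely touched those at 28 dpn. The changes were -0.81 in period I (SE 0.202, adjusted p = 0.0010) and 1.39 in period II (SE 0.201, adjusted p = 2.99e-07). DCN read 8.57, 9.54 and 10.42 at 94 dpc, 7.74, 8.69 and 10.29 at 1 dpn, 8.97, 9.71 and 10.65 at 28 dpn, followed by 8.28, 9.47 and 10.45 at 188 dpn. It changed by -0.90 (SE 0.201, adjusted p = 3.08e-04) and 1.16 (SE 0.215, adjusted p = 1.62e-05) in the same periods. All its stages overlapped, and neither proteoglycan was called in period III. Over the whole course BGN was higher by 0.68 (adjusted p = 2.53e-05), while DCN changed by -0.05 (SE 0.159).

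Of the adhesive and matricellular glycoproteins, all 4 tested in period I were called lower and 4 of 5 tested in period II were called higher, against 34.0% and 28.8% of all probe-sets. Both counts hold FN1, whose probe-sets moved in opposite directions, and the period I calls of SPARC and THBS2 were lost under other settings. The count of period II also holds THBS3, which passed the filter through 28 dpn alone, so its direction was largely set by the filter. SPARC, a collagen-binding protein that shapes basement membranes, measured 11.80, 12.85 and 13.39 (lowest, median, highest) at 94 dpc, 11.67, 12.57 and 12.93 at 1 dpn, 13.25, 13.71 and 14.06 at 28 dpn, followed by 12.29, 12.70 and 13.47 at 188 dpn. All piglets at 28 dpn lay above all newborns. Its changes were -0.44 (SE 0.137, adjusted p = 0.00656), 1.26 (SE 0.127, adjusted p = 2.63e-10) and -0.92 (SE 0.114, adjusted p = 1.29e-07), and the first became 0.21 with the 3′ minus 5′ covariate (adjusted p = 0.904) and -0.16 as the mean of its probe-sets (adjusted p = 0.331). Its mean, like that of COL4A2, was highest at 28 dpn, and the whole course gave -0.10 (SE 0.127). THBS1 and THBS2 are thrombospondins, secreted proteins that bind matrix and activate or restrain growth factors. THBS1 had the largest decrease of period I, -1.61 (SE 0.240, adjusted p = 8.52e-07), with signals of 6.24, 7.29 and 8.77 at 1 dpn against 6.67, 8.98 and 9.89 at 94 dpc, which overlapped. The lowest fetal value was that of array 6. Means of 7.80 at 28 dpn and 7.77 at 188 dpn followed, and the change of 0.43 in period II (adjusted p = 0.0724) was not called, though it was called higher after quantile normalization, after centring, with array weights and without arrays 25, 27 and 28 of 1 dpn. THBS2 changed by -0.41 and 0.93 in periods I and II (adjusted p = 0.00961 and 6.97e-09), the first lost after quantile normalization (adjusted p = 0.0657). THBS3 was tested only from period II on, where it was called higher by 1.12 (SE 0.319, adjusted p = 0.00236). It had not passed the filter in period I, so it passed there through 28 dpn alone. It reached background on 3, 10, 14 and 12 arrays of the 4 stages.

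FN1, fibronectin, the adhesive protein of plasma and matrix, gave results that depend on the probe-set. The brightest one averaged 15.45 ± 0.13, 15.10 ± 0.16, 15.34 ± 0.21 and 15.38 ± 0.23 across the stages (SD), with changes of -0.35 in period I (SE 0.0646, adjusted p = 3.03e-05) and 0.24 in period II (SE 0.0758, adjusted p = 0.00605). Quantile normalization gave 0.17 in period I (adjusted p = 0.0142). Another FN1 probe-set, with a mean of 10.00 at 1 dpn and 9.50 at 94 dpc, was called higher in period I and lower in period II (0.50 and -0.66), as was a dimmer one (0.86 and -2.24). FN1 therefore has no settled direction in these periods. It was the only member among 9 with several tested probe-sets whose probe-sets were called in opposite directions in periods I and II, and in none was this so in period III or over the whole course.

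**Figure D3:**
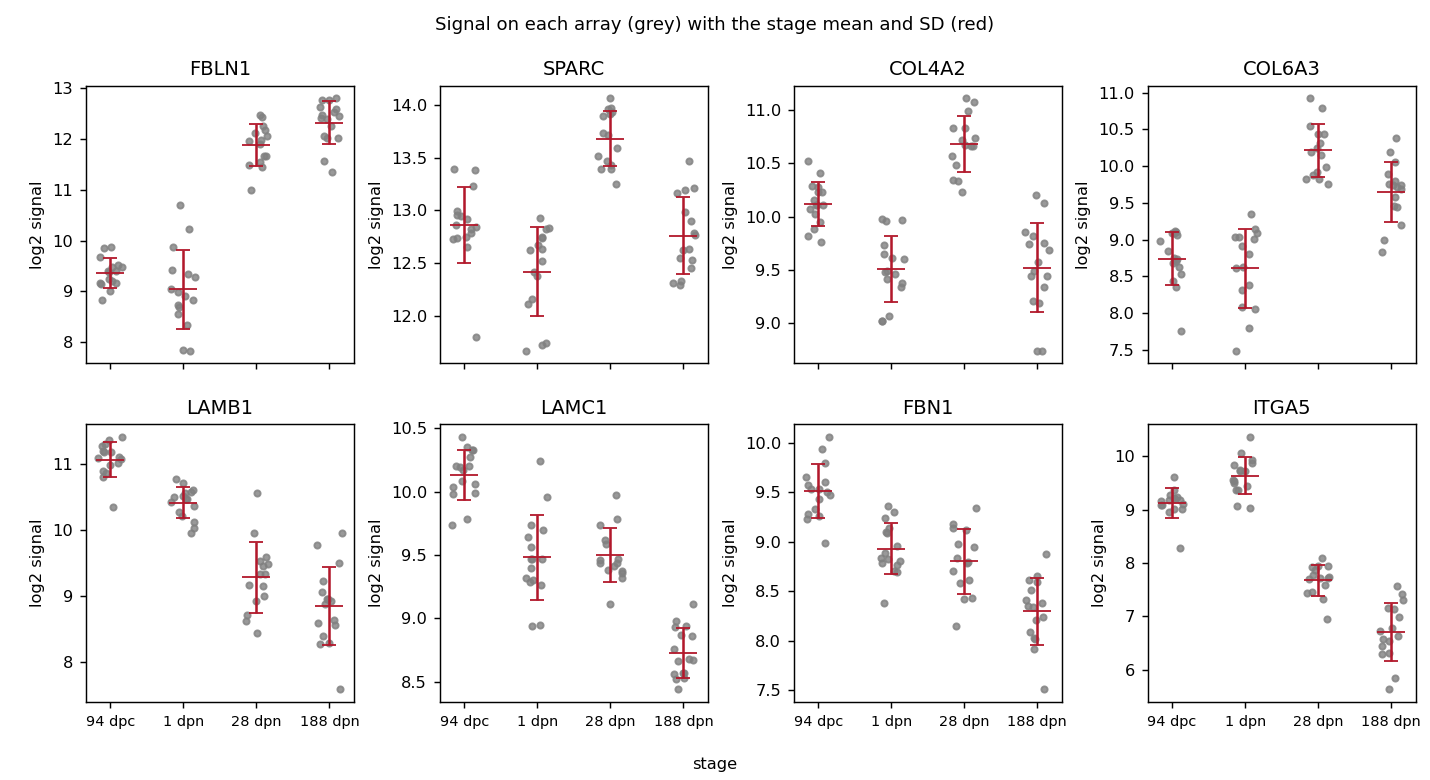
Log2 signal of 8 matrix genes on every array (grey points) with the stage mean and SD (red) at 94 dpc, 1 dpn, 28 dpn and 188 dpn (16, 16, 15 and 16 arrays). FBLN1, SPARC, COL4A2 and COL6A3 at 28 dpn lay wholly above 1 dpn, ITGA5 wholly below, and LAMB1, LAMC1 and FBN1 at 188 dpn wholly below 94 dpc.

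Of 8 matrix metalloproteinases, 3 were tested. MMP2, the gelatinase that also cuts type IV collagen, declined in periods I and III. It read 7.54, 8.36 and 8.71 (lowest, median, highest) at 94 dpc, 7.46, 8.00 and 8.77 at 1 dpn, 7.06, 7.79 and 8.66 at 28 dpn, followed by 6.42, 7.05 and 8.27 at 188 dpn, and all stages overlapped. The changes were -0.35 (adjusted p = 0.0149) and -0.56 (SE 0.158, adjusted p = 0.00536), and the whole course gave -1.18 (SE 0.137, adjusted p = 1.87e-09). The call of period I was lost after quantile normalization and centring (adjusted p = 0.135 and 0.088). MMP14, the membrane-bound protease that activates pro-MMP2, peaked at 28 dpn, with means of 8.49, 8.49, 9.30 and 8.51 across the stages. Its changes were 0.81 in period II (SE 0.114, adjusted p = 1.87e-07) and -0.79 in period III (SE 0.139, adjusted p = 3.30e-05). MMP7, matrilysin, rose by 0.89 in period II (SE 0.207, adjusted p = 2.99e-04) and held that level, with 9.25 ± 0.39 at 28 dpn, followed by 9.27 ± 0.48 at 188 dpn (SD). MMP1, MMP3, MMP9, MMP13 and MMP20 never passed the filter.

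The 3 inhibitors tested took different courses. TIMP2, which blocks MMP2 and also helps MMP14 to activate it, read 9.42, 9.88 and 10.54 (lowest, median, highest) at 28 dpn against 7.58, 9.13 and 10.24 at 1 dpn, which overlapped. It was higher by 0.86 in period II (SE 0.159, adjusted p = 1.62e-05) and lower by 0.62 in period III (SE 0.129, adjusted p = 2.74e-04), although its dimmest probe-set gave -0.12 there (adjusted p = 0.412). TIMP2 and MMP14 were thus called in the same direction in both periods, and MMP2 shared only the decrease. In fetuses TIMP2 spanned 5.11 to 9.21, the lowest being array 6, and its change of 0.57 in period I (adjusted p = 0.0602) was called higher without arrays 6 and 13. It was also called without arrays 25, 27 and 28 of 1 dpn, after quantile normalization, after centring and in the fit of all arrays together, while its other probe-set gave -0.16 (adjusted p = 0.32). TIMP3, the inhibitor that stays bound to matrix, fell by 0.89 in period II (SE 0.189, adjusted p = 1.02e-04), with means of 8.40, 8.11, 7.22 and 7.11 across the stages. TIMP1, a secreted inhibitor, had an adjusted p of 0.048 in period I (change 0.56, SE 0.241), which did not hold without arrays 6 and 13 of 94 dpc (adjusted p = 0.0838), without arrays 25, 27 and 28 of 1 dpn (adjusted p = 0.0507) or with no filter (adjusted p = 0.0819). Its decrease of 0.60 in period III had an adjusted p of 0.00681. TIMP4 was not tested.

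ADAMTS1, a protease of large proteoglycans, declined in periods II and III. Its means were 9.46 ± 0.62, 9.82 ± 0.50, 8.91 ± 0.29 and 8.43 ± 0.49 (SD), with changes of -0.92 in period II (SE 0.146, adjusted p = 1.63e-06) and -0.48 in period III (SE 0.142, adjusted p = 0.00833). The change of 0.37 in period I was not called (adjusted p = 0.103), and its second probe-set averaged 9.37 at 1 dpn and 9.36 at 94 dpc. ADAMTS6, a less well known member of the same protease family, fell by 1.27 in period I (SE 0.265, adjusted p = 1.36e-04). It fell by 2.88 over the whole course (SE 0.340, adjusted p = 2.80e-09), with signals of 2.45, 5.27 and 6.18 (lowest, median, highest) at 188 dpn against 6.42, 7.77 and 9.06 at 94 dpc. These did not overlap, but only 5 of the 16 oldest arrays were above background. ADAMTS6 was not tested in periods II and III, so it passed through 94 dpc alone and its direction was largely set by the filter. ADAMTS20 was not tested.

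Among the integrins, ITGA5, the alpha chain of the fibronectin receptor, had the largest decrease of the members in period II and was called higher in period I and lower in both later periods. Its lowest, median and highest signals were 8.28, 9.18 and 9.62 at 94 dpc, 9.03, 9.64 and 10.36 at 1 dpn, 6.95, 7.71 and 8.10 at 28 dpn, followed by 5.63, 6.67 and 7.57 at 188 dpn. Every animal at 28 or 188 dpn was below every animal at 94 dpc or 1 dpn. The changes were 0.51 (SE 0.113, adjusted p = 2.62e-04), -1.96 (SE 0.117, adjusted p = 2.15e-15) and -0.97 (SE 0.154, adjusted p = 7.89e-06). ITGB1, the beta chain that pairs with it and with most matrix-binding alpha chains, fell in the same period II by 0.87 (SE 0.114, adjusted p = 5.07e-08). ITGB1 read 10.43, 10.90 and 11.57 at 28 dpn against 11.28, 11.82 and 12.31 at 1 dpn, in part overlapping, and stayed at 11.01 ± 0.30 (SD) at 188 dpn. Its changes of -0.04 and 0.03 in periods I and III were not called. ITGA6 and ITGA8 were not tested.

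The other tested beta chains rose in period II. ITGB5, a vitronectin receptor chain, changed by 0.50 (SE 0.157, adjusted p = 0.00511), and its pigs at 188 dpn, 10.29 to 11.16, lay above all fetuses, 9.49 to 10.12. ITGB3, the beta chain of the platelet fibrinogen receptor and of a vitronectin receptor on other cells, read 8.20, 9.26 and 10.05 at 28 dpn, against 6.00, 7.53 and 9.25 at 1 dpn (lowest, median, highest). It fell by 1.35 in period I (SE 0.217, adjusted p = 3.01e-06) and rose by 1.68 in period II (SE 0.219, adjusted p = 4.38e-08). Of the markers of megakaryocytes and platelets, which also hold THBS1, 3 of 3 were called lower in period I, against 34.0% of all probe-sets. Of 2 tested in period II 1 was called lower, against 42.9%, and 1 was not called. The marker not tested in period II passed in period I through 94 dpc alone, so its direction was largely set by the filter. None of the 3 was below background throughout a stage. Their summed signal ranged over 9.40 to 10.92 at 94 dpc, 8.49 to 9.59 at 1 dpn and 8.06 to 9.20 at 28 dpn (log2). Their part in ITGB3 and THBS1 was not tested.

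ITGB2, the beta chain of leukocyte integrins, read 9.23, 10.32 and 10.73 at 28 dpn against 7.46, 8.45 and 9.28 at 1 dpn (lowest, median, highest), which overlapped only at the edge. It was higher by 1.71 in period II (SE 0.178, adjusted p = 5.24e-10) and lower by 1.02 in period III (SE 0.136, adjusted p = 4.49e-07). Of the macrophage markers 6 of 9 were called higher in period II, against 28.8% of all probe-sets. In period III 9 of 9 were lower, against 22.5%, so in periods II and III most macrophage markers moved with ITGB2. In period I, where ITGB2 changed by 0.01 (adjusted p = 0.977), 3 of the 9 markers were higher and 0 lower. The shares of all probe-sets there were 22.9% and 34.0%, and the macrophage markers thus did not follow ITGB2 in every period. Their summed signal ranged over 14.26 to 15.50 at 1 dpn, 15.77 to 16.19 at 28 dpn, followed by 15.13 to 15.86 at 188 dpn (log2). C1QC, a complement chain of macrophages, averaged 14.71 at 28 dpn, and none of the 9 markers was below background throughout a stage. All 3 tested lymphocyte markers were also higher in period II, against 28.8% of all probe-sets. None of the 9 on the array passed the filter in period I, so these 3 passed through 28 dpn alone. Their direction was thus largely set by the filter. Of the 9, only GNLY was below background on every newborn array. The part of these cells in ITGB2 was not tested.

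**Figure D4:**
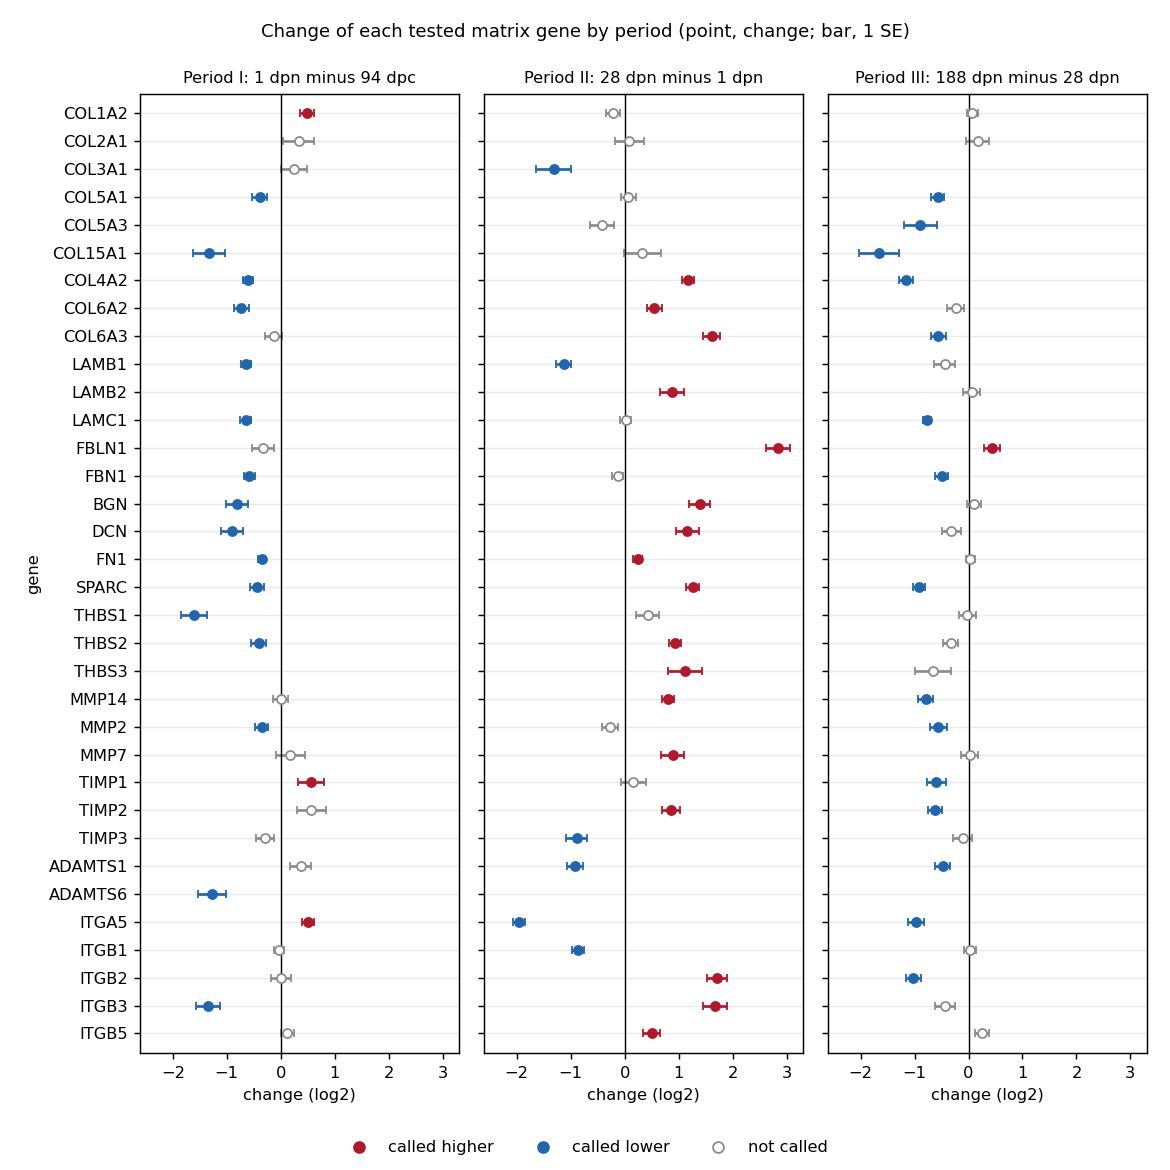
Change (log2, later minus earlier stage) of every tested matrix gene in periods I, II and III with 1 SE, filled red where called higher, filled blue where called lower and open where not called. The largest values are 2.84 for FBLN1 and -1.96 for ITGA5 in period II.

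Genes that serve the matrix without being members were read from fixed lists. Of 13 genes of collagen modification, folding and processing, 1 was called higher and 5 lower in period I, 6 higher and 2 lower in period II, and 1 higher and 9 lower in period III. The lower calls of period I lay near the 34.0% of all probe-sets, and those of all probe-sets were 28.8% higher and 42.9% lower in period II and 12.3% higher and 22.5% lower in period III. FKBP10, a chaperone of collagen in the endoplasmic reticulum, averaged 9.37, 7.57, 8.16 and 7.14 across the stages, with a change of -1.79 in period I (adjusted p = 2.89e-11). SERPINH1, the collagen chaperone HSP47, was called only in period III among the periods, at -1.12 (adjusted p = 3.01e-10). BMP1, which trims procollagen, was higher by 1.17 in period II (adjusted p = 1.07e-10), and LOXL1, a relative of LOX, by 1.26 (adjusted p = 2.51e-05). The median changes of this list were -0.27, 0.25 and -0.55 in the 3 periods.

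Other matrix proteins gave 6 of 11 lower in period I, 6 of 11 higher in period II, and 2 lower and 3 higher of 11 in period III. The shares of all probe-sets were 34.0% lower, 28.8% higher, and 22.5% lower with 12.3% higher, so the decreases of period III lay near that share. NID2, which links laminin and type IV collagen networks, was called like COL4A2 in the 3 periods, with means of 9.64, 8.13, 9.11 and 7.94 across the stages. MGP, an inhibitor of calcification, was not. Its lowest, median and highest signals were 8.03, 10.46 and 11.10 at 94 dpc, 11.88, 12.83 and 14.30 at 1 dpn, 13.95, 14.26 and 14.60 at 28 dpn, followed by 13.86, 14.28 and 15.00 at 188 dpn. Every newborn exceeded every fetus, and the change was 2.63 in period I (adjusted p = 3.62e-10) and 1.35 in period II (adjusted p = 1.07e-06). POSTN, periostin, was lower by 1.62 in period II (adjusted p = 5.25e-07). Of the TGF-beta pathway, which drives matrix synthesis in stellate cells, 1 of 6 tested genes was higher and 2 lower in period I. These lay near the 22.9% and 34.0% of all probe-sets. In period III 3 of 7 were lower, against 22.5%. In period II 4 of 8 tested genes were lower in period II, among them the co-receptor TGFBR3 with a change of -2.61, and 2 were higher, the ligands TGFB1 by 0.66 and TGFB3 by 0.74, shares near the 42.9% and 28.8% of all probe-sets. Of the plasmin and meprin genes, PLAU, the urokinase that activates plasminogen, was higher in periods I and II (0.50 in both, adjusted p = 0.0329 and 0.00119). PLG, plasminogen itself, was lower in period I (-0.20, adjusted p = 0.0171). Of the 4 tested there 1 was thus higher and 1 lower, against 22.9% and 34.0% of all probe-sets.

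Markers of the cells that make matrix were split. Of 8 stellate cell markers, 5 were tested in period I, with 2 called higher and 1 lower, against 22.9% and 34.0% of all probe-sets. In period II 6 were tested, with 2 higher, near the 28.8% of all probe-sets, and 4 not called. PDGFRB, the growth factor receptor of stellate cells and pericytes, was the only stellate marker called lower in period I, against 2 called higher. It was 1 of the 2 called higher in period II. It read 10.88, 11.39 and 11.61 (lowest, median, highest) at 94 dpc, 9.80, 10.36 and 11.07 at 1 dpn and 10.75, 11.21 and 11.71 at 28 dpn. ACTA2, the muscle actin of activated stellate cells, gave changes of -0.23, 0.09 and 0.24 in the 3 periods, none of which was called. The summed stellate signal ranged over 12.66 to 13.85, 12.61 to 14.47, 13.11 to 14.14 and 12.99 to 14.17 across the 4 stages (log2), so the stages overlapped throughout. THY1, a marker of portal fibroblasts, was the only one of its list tested in period I and was called lower (-1.50, adjusted p = 0.0262). In period II 2 of the 4 on the array were tested and called higher, THY1 by 2.31 (adjusted p = 0.0010) and CD34 by 1.04 (adjusted p = 0.00114). CD34 had not passed the filter in period I, so it passed through 28 dpn alone and its direction was largely set by the filter. THY1 ranged from 1.99 to 8.50 at 1 dpn, with 12 of 16 arrays above background. In both periods THY1 was called in the same direction as BGN and DCN. Of 9 endothelial markers, 2 were higher and 5 lower in period II, near the shares of all probe-sets. Markers of blood-forming cells were lower after birth. All 6 markers of red cell precursors were lower in period I, with a summed signal of 10.57 to 12.15 at 1 dpn against 13.97 to 15.17 at 94 dpc. All 5 neutrophil markers were lower too, against 34.0% of all probe-sets in that period. Only 4 of the red cell markers and 3 of the neutrophil markers were tested in period II. The others passed in period I through 94 dpc alone, so their direction was largely set by the filter. None of the stellate, endothelial, red cell or neutrophil markers was below background on every array of a stage, and the part of any of these cells in the members' changes was not tested.

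The spread between animals of a stage was read from the SD. The median SD of the 29 members tested in all periods was 0.37, 0.44, 0.36 and 0.44 at 94 dpc, 1 dpn, 28 dpn and 188 dpn, against 0.29, 0.37, 0.27 and 0.32 for 5073 expressed genes. FN1 was the tightest at 94 dpc and 1 dpn (0.13 and 0.16), MMP14 at 28 dpn (0.18) and LAMC1 at 188 dpn (0.20). TIMP2 was the widest at 94 dpc (0.93), where array 6 lay far below the others, and COL15A1 at the other stages (1.06, 0.91 and 1.20). Among newborns array 25 held the highest value in 9 of the 29 members, and arrays 27 and 28 the lowest in 5 each.

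Within a stage, chains of 1 trimer and an enzyme with its inhibitor were compared across animals, in 8 relations of 2 pairs, of which none passed after adjustment (permutation test, Benjamini-Hochberg). The animals are sib pairs and so not fully independent. LAMB1 and LAMC1 gave Pearson r of 0.33, 0.44, -0.11 and 0.20 at 94 dpc, 1 dpn, 28 dpn and 188 dpn (permutation p = 0.213, 0.0851, 0.689 and 0.457, adjusted 0.426, 0.227, 0.787 and 0.731). Their Spearman rho was 0.19, 0.38, -0.21 and 0.27 (permutation p = 0.477, 0.149, 0.441 and 0.302, adjusted 0.567 in each). Without the 2 arrays farthest from the median of LAMB1, r was -0.21, 0.51, -0.12 and -0.01. MMP2 and TIMP2 gave r of 0.70, 0.47, -0.13 and -0.03 (permutation p = 0.00844, 0.0636, 0.650 and 0.925, adjusted 0.0675, 0.227, 0.787 and 0.925). Their rho was 0.32, 0.65, -0.06 and -0.18 (permutation p = 0.227, 0.00806, 0.831 and 0.496, adjusted 0.567, 0.0645, 0.831 and 0.567). Without the 2 arrays farthest from the median of MMP2, r was 0.19, 0.51, -0.26 and -0.13, so the fetal value rests on those arrays.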

How the data were processed

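RNA of 63 livers was read on 63 porcine arrays. Per the labels, the deposited values are log2 signals (GCOS 1.1.1 is named in the submitters' processing notes); the paper's methods name another normalization, but the deposited values have the same trimmed mean signal (500) on each array, as a single-array scaling by the authors would give. Of 24123 probe-sets, 188 controls were left out; 10069 carried 1 gene symbol, 198 several and 13668 none. Background was the 95th percentile of 23 control probe-sets with no target. Probe-sets above the 50th percentile on at least 50% of the arrays of 1 compared stage were fitted with limma 3.58.1 (R 4.3.3), 1 fit for each comparison, with Benjamini-Hochberg adjusted p under 0.05 over all probe-sets tested. The fit was tested on simulated data. Members, roles, lists and alternatives were chosen with earlier results of these data known. Genes were named where they were among the 5 largest called increases or decreases of a period or on a fixed list of well-known members; others are given by role or where a count was small, some after their values were seen. Correlations used 100000 permutations. The precision is limited by 15 to 16 animals a stage. Alternatives were no filter, a 75th percentile filter, quantile normalization, centring, all arrays in 1 fit, eBayes with trend and robust, array weights, arrays left out, the 3′ minus 5′ covariate, other probe-sets of a gene and stricter thresholds.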

Additional observations from a re-analysis of the deposited data

How the results depend on the processing

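Of 83 member calls, all 83 kept direction and side under eBayes with trend and robust, 82 in a fit of all arrays together, 81 with array weights, 79 with centring, 77 after quantile normalization and 58 with the 3′ minus 5′ covariate. Of 44 calls, 43 held without arrays 6 and 13 of 94 dpc, and of 42, 40 held without arrays 25, 27 and 28 of 1 dpn. Counts moved by over 1.5 times as follows. In period I members called higher numbered 5 after quantile normalization or centring and 0 with the 3′ minus 5′ covariate or a change of at least 1 (limma, 2 and 4 at an unadjusted p under 0.05). Members called lower numbered 9 of 16 tested with the 75th percentile filter. With the mean of all probe-sets there were 10 of 25, and 9 of 22 with the dimmest probe-set. Of all probe-sets 36.5%, 34.8% and 34.0% were lower in these settings. Members called lower numbered 4 with a change of at least 1 and 0 with the covariate (limma, 3 at an unadjusted p under 0.05). In period II 10 of 53 tested were lower with no filter, against 33.1% of all probe-sets. With a change of at least 1, 9 were higher and 3 lower. In period III 2 were higher after centring, and 3 were lower with a change of at least 1. With the dimmest probe-set 8 of 19 tested were lower, against 22.5% of all probe-sets. The one called higher, FBLN1, was lost (0, with 1 at an unadjusted p under 0.05 by limma) in the fit of all arrays, with the covariate, under an adjusted p of 0.01 and with a change of at least 1. Over the whole course 16 were higher after centring, 6 with the covariate and 2 with a change of at least 1, and 24 of 53 tested were lower with no filter and 8 of 20 with the 75th percentile filter, near the 45.5% and 46.8% of all probe-sets.

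Directions turned for FN1 in period I (0.17 after quantile normalization, 0.47 as the mean of all probe-sets) and in period II (-1.15 as the mean), for LAMC1 in period I (0.21 as the mean), for SPARC in period I (0.21 with the covariate) and for COL6A2 over the whole course (0.01 after quantile normalization, 0.03 after centring). The correlation of MMP2 and TIMP2 after quantile normalization was 0.70 at 94 dpc, with an adjusted p of 0.0366 by permutation, and 0.05 at 188 dpn. Scaling moved the median change of all probe-sets over the whole course, at -0.37 as deposited, to -0.01 after quantile normalization and 0.08 after centring. The number of members tested changed with the filter settings, the mean of all probe-sets and the dimmest probe-set. The cause of the other shifts was not tested. No paired analysis was possible because the labels number every array singly and tie no animal to one of another stage. Signal over background limits the low members: ADAMTS6, COL15A1 and THBS3 were below background on part of the arrays of at least 1 stage.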
